A study of Papio anubis with 40 samples.

Results

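The serum of 8 olive baboons (Papio anubis) was compared between the draw labelled 15 months and the draw labelled 6 months. The comparison used every library with either of those labels, 16 of the 40 in the study, and paired each month 15 library with the month 6 library of the same animal. Only rows of the count table that carry a fragment ID were read. Endometriosis had been induced in all 8 animals by placing menstrual tissue in the peritoneal cavity at laparoscopy, and every library is labelled as untreated. The study drew 0.5 mL of serum from each animal before inoculation (month 0) and at months 3, 6, 9 and 15, and sequenced the small RNA. Both groups therefore carry the same inoculation and differ in the month of the draw. No animal without inoculation was among them, so time since inoculation, age and anything else tied to the date of the draw cannot be told apart. A share of counts can also move because the fragment itself changed or because the others did, and serum counts do not tell these apart.

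The fragments measured are pieces of transfer RNA. A tRNA folds into a cloverleaf with a D arm, an anticodon arm and a T arm, and its mature 3′ end carries the bases CCA. Nucleases that cut in or near the anticodon loop, angiogenin among them, split a tRNA into a long 5′ and a long 3′ piece, and other cuts give smaller 5′, internal and 3′ fragments. In serum the long 5′ pieces of a few tRNAs, those for glycine, valine, glutamate and lysine, usually dominate. Fragment names here follow the deposited IDs, which give the length in nucleotides (nt) after the letters tRF.

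The longest reads from each main tRNA show where the anticodon lies, and the commonest fragments show where the serum pieces end. In the first set, capitals mark the 7 bases of the anticodon loop, whose middle 3 are the anticodon. The valine family carries 2 anticodons that its 5′ fragments cannot separate, and its read shows G at an inosine position.

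Val-AAC/CAC: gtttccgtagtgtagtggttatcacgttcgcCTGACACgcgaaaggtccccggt
Gly-CCC: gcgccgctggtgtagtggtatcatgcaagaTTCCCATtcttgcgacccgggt
Lys-TTT: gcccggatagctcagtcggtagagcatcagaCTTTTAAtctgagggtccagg
Gly-GCC: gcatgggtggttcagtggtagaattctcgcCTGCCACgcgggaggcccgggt

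In the second set, each pair holds a common fragment that stops just before the loop and the longer one that enters it. Capitals again mark loop bases.

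Val-AAC/CAC, tRF-31-79MP9P9NH57SD: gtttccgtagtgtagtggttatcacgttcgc
Val-AAC/CAC, tRF-32-79MP9P9NH57SJ: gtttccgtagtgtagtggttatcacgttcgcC
Gly-CCC, tRF-30-Q1Q89P9L8422: gcgccgctggtgtagtggtatcatgcaaga
Gly-CCC, tRF-32-Q1Q89P9L8422Q: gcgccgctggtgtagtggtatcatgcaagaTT
Lys-TTT, tRF-31-PS5P4PW3FJHPB: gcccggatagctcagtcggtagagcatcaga
Lys-TTT, tRF-32-PS5P4PW3FJHP1: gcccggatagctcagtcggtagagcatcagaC

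Libraries held 1685919 to 4853810 counts at month 6 and 1631205 to 3847831 at month 15, so 3 counts correspond to between 0.705 and 1.70 CPM, the usual count relative to library size, scaled here by edgeR's TMM factors. At month 15 the libraries of animals PA8001 and PA8003 stood apart: their median Spearman correlations with the other libraries were 0.628 and 0.646, against 0.764 to 0.876 for the other 14 libraries. The TMM factor of the PA8003 library was 0.458, so its CPM values are scaled up, can add to more than the library, and are read beside shares of counts below. Calls that were lost without those 2 libraries are therefore given beside the results they touch. Why they stood apart was not tested. Outside the comparison, the month 0 library of PA8001 had a median correlation of 0.637 and held 198840 counts. It stayed in the fit of all 40 libraries and in the month 0 means.

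Counts moved between size classes, toward fragments of 32 to 36 nt at month 15. These fragments made up 18.8% ± 4.58 (SD, n = 8) of counts at month 6 and 35.4% ± 14.3 at month 15. Their share ran from 12.5% to 25.3% with a median of 19.1% at month 6, and from 23.7% to 63.1% with a median of 29.5% at month 15. It was higher at month 15 in 8 of 8 animals, from 17.5% to 63.1% in PA8003 and from 18.6% to 42.6% in PA8873 at the large end, and from 21.5% to 24.2% in PA8912 at the small end. The ranges of the groups overlapped narrowly, and the paired difference passed an exact two-sided sign-flip test (p = 0.00781, the smallest that 8 animals allow, and adjusted p = 0.0234 over 15 library measures). The share of 26 to 31 nt was lower in 8 of 8 animals, 63.3% against 80.5% (adjusted p = 0.0234, exact sign-flip test).

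Rarer size classes moved in parallel. Fragments of 16 to 25 nt went from 0.607% to 1.04% of counts and were higher in 7 of 8 animals (adjusted p = 0.0391, exact sign-flip test). Fragments of 37 nt and longer went from 0.0911% to 0.215%, and fragments that end in the mature CCA from 0.0663% to 0.155%, each higher in 8 of 8 animals (adjusted p = 0.0234 for both, same test). The mean length over all counts, 30.3 nt at month 6 and 30.5 nt at month 15, did not pass (adjusted p = 0.0911, same test). Without animals PA8001 and PA8003 the 32 to 36 nt share was 11.0 percentage points higher at month 15 and still higher in every animal left. However, 6 animals cannot give an exact p below 0.03125, and the adjusted p was 0.0938. The shares of 26 to 31 nt, of 37 nt and longer and of CCA ends did not pass either (adjusted p = 0.0938 for each, exact sign-flip test). Nor did that of 16 to 25 nt (adjusted p = 0.156, same test).

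**Figure D1:**
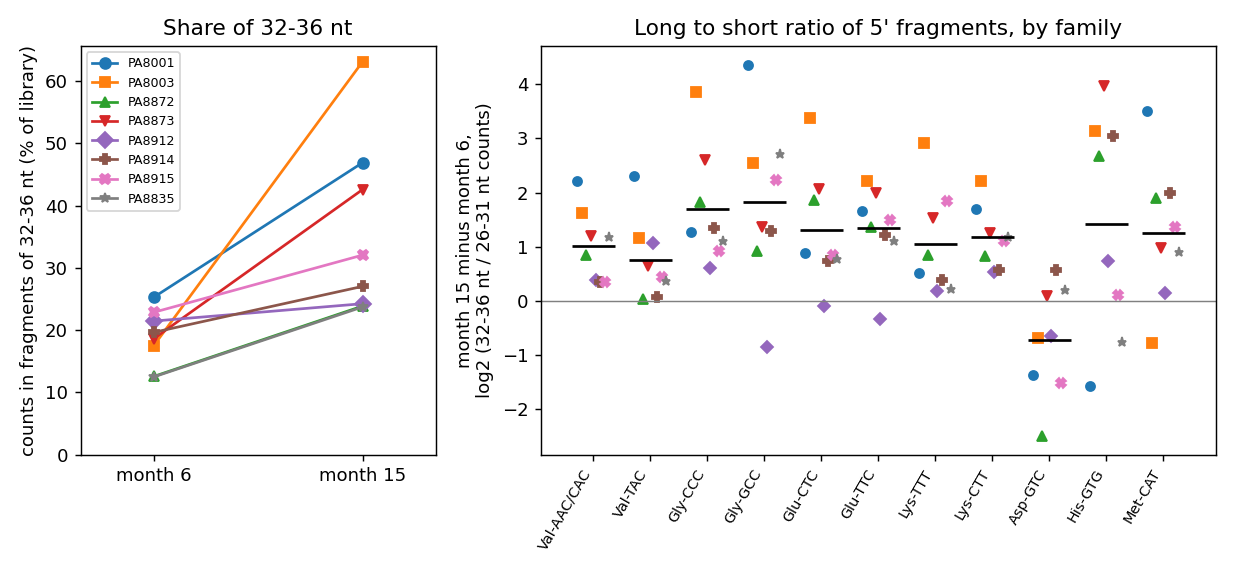
Left, the share of counts from fragments of 32 to 36 nt in each of the 8 animals at months 6 and 15 (percent, lines join an animal's libraries). Right, the month 15 minus month 6 difference in log2 ratio of 32 to 36 nt to 26 to 31 nt counts among 5′ fragments, by tRNA family (points are animals, bars the mean). Every animal's share rises, and 9 of 11 families pass the exact test.

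The shift toward longer 5′ fragments was found within single tRNA families, where the mixture of families does not enter the ratio. Whether the mixture of near-identical tRNAs inside a family changed was not tested. The log2 ratio of 32 to 36 nt to 26 to 31 nt counts was higher at month 15 in 9 of 11 families tested (exact two-sided sign-flip tests over 8 animals, adjusted over the 11). It differed by 1.69 in Gly-CCC, 1.17 in Lys-CTT, 1.05 in Lys-TTT, 1.02 in Val-AAC/CAC and 0.76 in Val-TAC, each higher in 8 of 8 animals (adjusted p = 0.0172, exact). It differed by 1.82 in Gly-GCC, 1.34 in Glu-TTC and 1.30 in Glu-CTC, each higher in 7 of 8 animals (adjusted p = 0.0215, exact), and by 1.25 in Met-CAT (7 of 8, adjusted p = 0.0286, exact). In Gly-CCC the log2 ratio at month 6 was −2.65 ± 0.63 (SD, n = 8) and at month 15 −0.96 ± 1.08. His-GTG (1.41 on the log2 scale, 6 of 8 animals) and Asp-GTC (−0.73, 3 of 8 animals) did not pass, with an adjusted p of 0.102 for both. Without PA8001 and PA8003 no family passed (6 of 11 had an unadjusted p under 0.05 in the exact test), and the 9 ratios kept a positive difference, 0.43 for Val-TAC to 1.40 for Gly-CCC.

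Among single fragments, 2447 could be tested. With edgeR's quasi-likelihood test, 417 were higher at month 15 (17% of those tested) and 233 lower (9.52%), 26.6% in all, at an adjusted p under 0.05. Of the 417 higher fragments, 335 were higher in at least 7 of 8 animals, and of the 233 lower fragments 211 were lower in at least 7. The higher fragments went from 6.04% to 23.2% of all counts and the lower ones from 37.4% to 21.2%. With both month 15 libraries that stood apart left out, 99 fragments passed, 84 higher and 15 lower, and all 650 kept their direction. In 3 fragments, 0.123% of those tested, the libraries of the 2 months did not overlap, and they are named here after their values were seen. The valine fragments tRF-30-79JP9P9NH57S and tRF-31-79MP9P9NF57SD fell by 1.67 and 1.34 on the log2 scale, and the Asp-GTC 5′ fragment tRF-30-897PVP941QKS rose by 2.06 (adjusted p = 0.00668, 0.00590 and 0.00829, edgeR). Without the 2 libraries that stood apart, tRF-31-79MP9P9NF57SD passed (adjusted p = 0.0455, edgeR), and tRF-30-79JP9P9NH57S and tRF-30-897PVP941QKS did not (adjusted p = 0.0517 and 0.113, edgeR). All 3 were rare, with month 6 medians of 36.7, 9.97 and 3.73 CPM. The median over all fragments lay between −0.06 and −0.03 on the log2 scale under each scaling of the libraries.

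Where a 5′ fragment ended relative to the anticodon loop separated the higher from the lower fragments. Of 596 5′ fragments that end in the loop or anticodon, from its first base to the last anticodon base, 211 rose and 2 fell, with a median log2 change of 0.85. Of 1259 that end in the 7 bases before the loop, 27 rose and 201 fell, with a median of −0.41. These shares stand against 17% higher and 9.52% lower over all fragments. With those 2 month 15 libraries left out the medians were 0.62 and −0.34, with 66 higher and 0 lower in the loop and 1 higher and 12 lower before it.

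Over all families pooled, the median changed sign between 2 neighbouring bases. At the last base before the loop 573 fragments were tested, of which 3 rose and 95 fell (median log2 change −0.41). At the first base of the loop 357 were tested, of which 92 rose and 2 fell (median 0.58). At the second base of the loop 100 of 185 rose and none fell (median 1.45). The families contributed unevenly. At the last base before the loop 88 of the 95 that fell were Val-AAC/CAC, and Gly-CCC and Lys-TTT had medians of 0.10 and 0.11. At the first loop base 50 of the 92 that rose were Lys-TTT and 25 Gly-CCC, and the Val-AAC/CAC median was −0.24. The medians of Glu-CTC (−0.52 to 0.50) and Gly-GCC (−0.25 to 0.39) did change sign. The few fragments that stop much earlier did not follow the ones just before the loop. Of 15 that end 9 bases before the first anticodon base 4 rose, of 14 that end 8 bases before it 7 rose, and none of either fell. With the 2 libraries left out none of these early-ending fragments passed, 35 were higher and 0 lower at the first base of the loop, and 0 were higher and 5 lower at the base before it. By length alone the same step appears between 31 nt (28 of 423 rose, 96 fell, median −0.52) and 32 nt (153 of 381 rose, 2 fell, median 0.81).

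**Figure D2:**
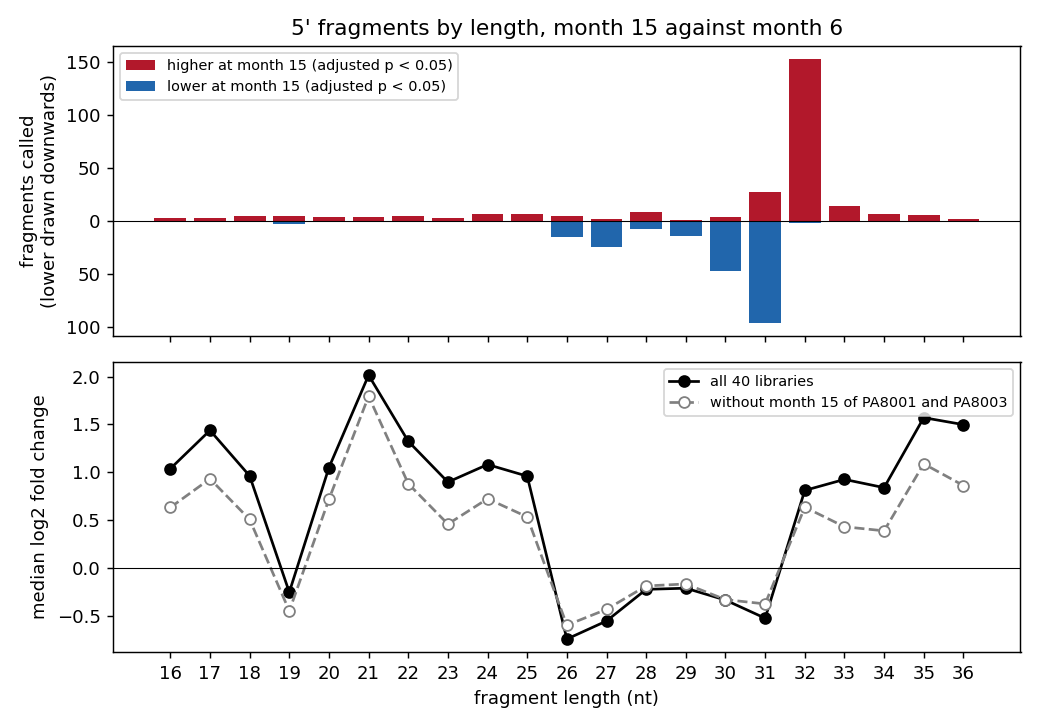
5′ fragments by length (nt), month 15 against month 6. The upper panel counts fragments called higher (up) and lower (drawn down), and the lower panel gives the median log2 fold change with all libraries and without the 2 libraries that stood apart. The median crosses from negative at 31 nt to positive at 32 nt.

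The commonest fragment at each end position showed the step in each of 4 abundant families. From the last base before the loop to its first base, the log2 change went from −0.996 to −0.20 in Val-AAC/CAC and from 0.29 to 1.22 in Gly-CCC. It went from 0.33 to 1.42 in Lys-TTT and from −0.23 to 0.59 in Gly-GCC. The steps, 0.80 to 1.08 on the log2 scale, were alike in size although the families started from different levels. The ratio of counts ending at these 2 bases, over all fragments of a family, was higher at month 15 in 9 of 11 families (exact sign-flip tests). That measure was chosen after seeing the data. In some families the rise went on past the first loop base. From there to the second loop base the log2 change went from −0.20 to 0.90 in Val-AAC/CAC and from 0.59 to 2.05 in Gly-GCC. It went from 1.22 to 1.82 in Gly-CCC and from 1.42 to 1.34 in Lys-TTT.

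**Figure D3:**
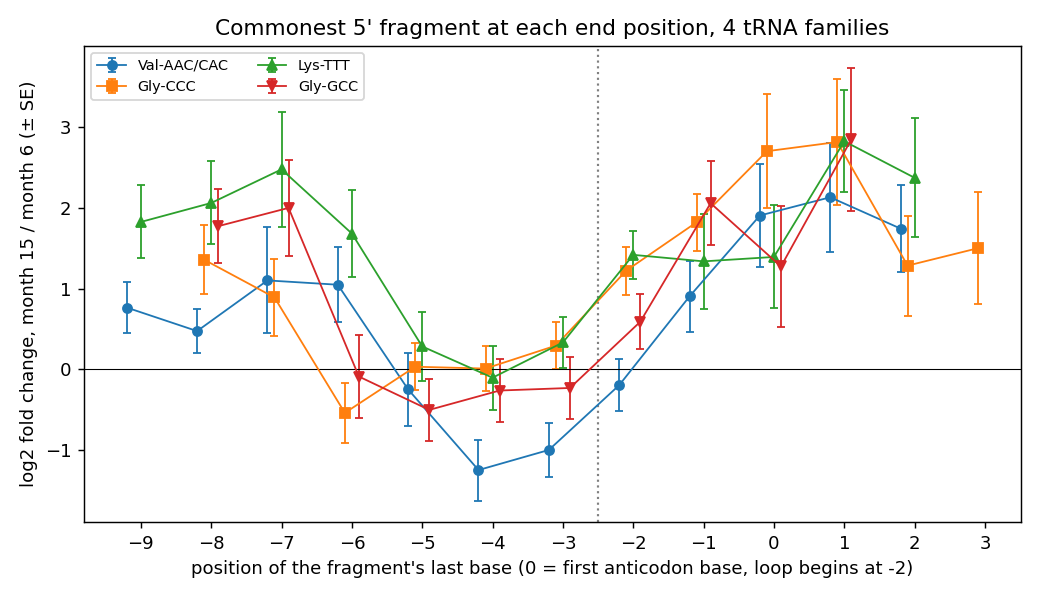
Log2 fold change (month 15 over month 6, ± SE) of the commonest 5′ fragment at each end position, counted in bases from the first anticodon base, for 4 tRNA families. Each line steps up by 0.80 to 1.08 between the last base before the loop and its first base. The Val-AAC/CAC, Gly-CCC and Gly-GCC lines rise further at the next base, and the Lys-TTT line does not.

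Valine fragments just short of the loop held most of the counts of the fragments that fell. The most abundant fragment in the study, tRF-31-79MP9P9NH57SD, held 17.1% to 29.4% of counts at month 6 with a median of 25.2%, and 2.08% to 23.8% with a median of 16.9% at month 15. It was lower in 8 of 8 animals, with PA8003 and PA8001 lowest at month 15, and the ranges overlapped (log2 change −0.996 ± 0.329 SE, adjusted p = 0.0237, edgeR). Without both libraries the change was −0.70 and did not pass (adjusted p = 0.201, edgeR). Its sequence variant tRF-31-79MP9P9NHR7SD fell by 1.09 on the log2 scale (adjusted p = 0.0103, edgeR), again in 8 of 8 animals, with a change of −0.77 that did not pass without both libraries (adjusted p = 0.115, edgeR).

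Of 185 valine fragments of 26 to 31 nt, 123 fell and 3 rose, and of 161 of 32 to 36 nt, 2 fell and 14 rose, against 9.52% lower and 17% higher over all fragments. In the shorter class 9 fell and 0 rose without the 2 libraries, and in the longer none passed. Among fragments with the exact valine sequence and a length of 25 to 36 nt, the 31 nt fragment went from 76.8% ± 3.81 to 63.2% ± 11.0 of counts, lower in 8 of 8 animals. The 32 nt fragment went from 18.8% ± 3.23 to 27.1% ± 4.52, higher in 8 of 8. Its own CPM barely differed (log2 change −0.20, adjusted p = 0.659, edgeR), so within this family the 32 nt piece gained share while the 31 nt piece fell.

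A variant of the 32 nt valine fragment went with the 31 nt fragment instead. In tRF-32-79MP9P9NH57S2 the last base differs (C32A, counted from the 5′ end), so its first 31 bases are those of tRF-31-79MP9P9NH57SD. It ran from 511 to 1079 CPM at month 6 with a median of 742, and from 95.9 to 699 CPM at month 15 with a median of 438. It fell by 1.08 on the log2 scale (SE 0.29, adjusted p = 0.00885, edgeR) and was lower in 7 of 8 animals, although its length is 32 nt. Without both libraries the change was −0.73 and did not pass (adjusted p = 0.0919, edgeR). The variants C32G and C32T did not pass (log2 changes −0.25 and 0.16). In Gly-CCC, whose 32 nt fragment rose, the variants T32A and T32C rose as well (log2 changes 1.14 and 1.52) and T32G did not pass (log2 change 1.07, adjusted p = 0.120, edgeR). Without both libraries T32A and T32C did not pass (adjusted p = 0.110 and 0.0611, edgeR).

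A single glycine fragment held most of the counts of the fragments that rose. The 32 nt Gly-CCC fragment tRF-32-Q1Q89P9L8422Q held 2.60% to 8.75% of counts at month 6, median 3.63%, and 6.75% to 48.1% at month 15, median 9.79%. PA8003 was far above the other animals at month 15, and the ranges overlapped at their edges. The fragment rose by 1.82 ± 0.35 on the log2 scale, in 7 of 8 animals (adjusted p = 0.00447, edgeR), and by 1.23 without both libraries (adjusted p = 0.0308, edgeR). PA8915 was the exception, at 69951 CPM at month 6 and 52896 CPM at month 15.

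Of 94 Gly-CCC fragments of 32 to 36 nt, 77 rose and 0 fell, and all 94 had a positive log2 change. Of 406 of 26 to 31 nt, 27 rose and 39 fell, or 6.65% and 9.61%, against 17% higher and 9.52% lower over all fragments. The share that fell thus lay near that over all fragments. Of the 94, 30 rose without the 2 libraries, and of the 406, 2 rose and 2 fell. The shorter main fragments did not pass: tRF-27-Q1Q89P9L842 changed by −0.54, tRF-29-Q1Q89P9L84FS by 0.01 and tRF-30-Q1Q89P9L8422 by 0.29 on the log2 scale. In share of the exact 25 to 36 nt sequence, the 32 nt fragment went from 14.5% ± 5.59 to 35.1% ± 16.6, higher in 8 of 8 animals, and the 27 nt fragment from 36.4% ± 8.32 to 22.3% ± 11.2, higher in 1 of 8. A 27 nt sequence variant, tRF-27-E1Q89P9L842, fell in 8 of 8 animals (log2 change −1.04, adjusted p = 0.00984, edgeR). A short piece of the D arm side, tRF-20-Q1Q89P9L, rose in 8 of 8 (log2 change 1.15, adjusted p = 0.00903, edgeR). Neither passed without both libraries (log2 changes −0.81 and 0.59, adjusted p = 0.0932 and 0.181, edgeR).

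Lysine fragments of Lys-TTT rose mainly at 32 to 36 nt. The 32 nt fragment tRF-32-PS5P4PW3FJHP1 ran from 4179 to 10156 CPM at month 6, median 6051, and from 7194 to 106825 CPM at month 15, median 13053. PA8003 stood far above the others at month 15, and the fragment was higher in 8 of 8 animals (log2 change 1.42 ± 0.29 SE, adjusted p = 0.00447, and 1.05 with adjusted p = 0.0308 without both libraries, edgeR). Of 70 Lys-TTT fragments of 32 to 36 nt 53 rose, and of 147 of 26 to 31 nt 6 rose (4.08%, against 17% over all fragments) and none fell, with 74 of 147 positive. Without the 2 libraries 33 and 1 rose. The 31 nt fragment tRF-31-PS5P4PW3FJHPB, the family's commonest, was higher in 4 of 8 animals (log2 change 0.33, adjusted p = 0.438, edgeR). Lys-TTT was the one of the 5 main families whose share of all counts passed, 3.99% against 6.14%, higher in 8 of 8 animals (adjusted p = 0.0234, exact sign-flip test). Without animals PA8001 and PA8003 the share was 2.00 percentage points higher at month 15 and did not pass (adjusted p = 0.0938, same test). Summed and scaled as a family, Lys-TTT did not pass either (log2 change 0.35, higher in 6 of 8 animals, adjusted p = 0.343, edgeR).

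A few shorter Lys-TTT fragments rose. Fragments tRF-25-PS5P4PW3FJ and tRF-28-PS5P4PW3FJDD rose by 1.82 and 1.68 on the log2 scale, each in 7 of 8 animals (adjusted p = 0.00677 and 0.0211, edgeR). Neither passed without the 2 libraries (log2 changes 1.17 and 1.54, adjusted p = 0.110 and 0.131, edgeR). For tRF-28-PS5P4PW3FJDD the month 15 mean of 857 CPM rests on PA8872, at 4147 CPM, while the other month 15 libraries held 180 to 767 CPM.

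**Figure D4:**
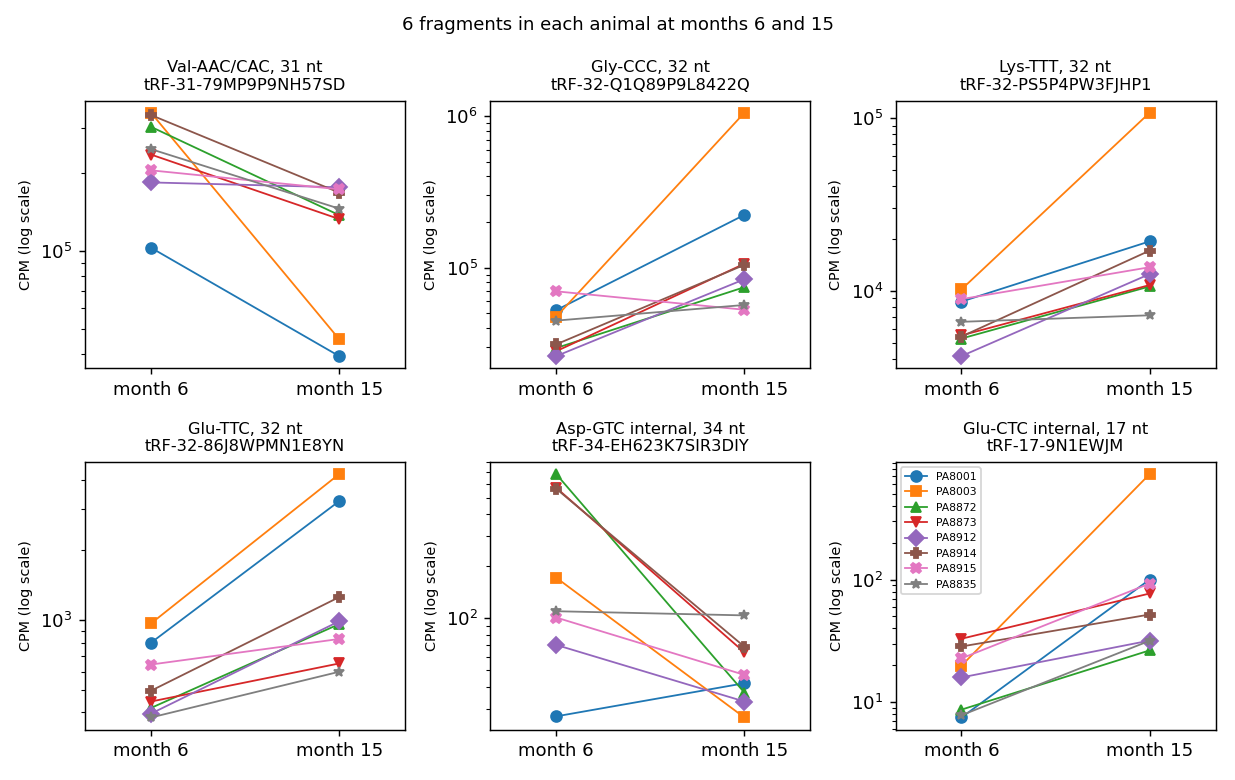
CPM (log scale, TMM-scaled) of 6 fragments in each of the 8 animals at months 6 and 15; lines join an animal's libraries. The valine 31 nt fragment falls in every animal, the lysine and Glu-TTC 32 nt fragments rise in every animal, and PA8003 reaches the highest month 15 value in 4 of the 6 panels.

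Among glutamate fragments the calls were fewer. Of 151 Glu-CTC 5′ fragments of 26 to 31 nt, 22 fell and 1 rose (14.6% and 0.662%, against 9.52% and 17% over all fragments). Of 76 of 32 to 36 nt, 3 rose (3.95%) and none fell, with 74 of 76 positive. None of either class passed without the 2 libraries, and the medians were −0.50 and 0.54, against −0.71 and 0.56 with all libraries. In Glu-TTC the 32 nt fragment tRF-32-86J8WPMN1E8YN ran from 380 to 967 CPM at month 6, median 471, and from 599 to 4258 CPM at month 15, median 974. It was higher in 8 of 8 animals (log2 change 1.33, adjusted p = 0.00677, edgeR), with PA8003 and PA8001 on top at both months. Without both month 15 libraries the change was 0.70 (adjusted p = 0.147, edgeR).

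Outside Asp-GTC, internal fragments, which lack both tRNA ends, rose in the largest share where they end in the loop or anticodon. The 93 internal fragments not assigned to a family, of which 21 rose and 7 fell, are left out of these counts. Over all families but Asp-GTC, 25 of 34 that end in the loop or anticodon rose, none fell, and all 34 had a positive log2 change (median 1.91). Of 84 that end before the loop, 13 rose and 5 fell (median −0.08), and of 70 that end beyond the anticodon 15 rose and 6 fell (median −0.60). The shares before the loop lay near those over all fragments, 17% higher and 9.52% lower. Without the 2 libraries 1, 3 and 3 of these fragments passed, all higher, and the medians were 1.04, −0.08 and −0.39. Several Glu-CTC internal fragments start at the same base. Of 3 pairs chosen after their values were seen, which serve as description and not as a test, each shares its first base (base 9, 13 or 14 of the tRNA), and the longer fragment runs 3 bases further, to the first loop base. From base 9, tRF-21-R718YKIS0 fell by 1.24 on the log2 scale and tRF-24-R718YKISIM rose by 1.07. From base 13, tRF-17-V47P594 fell by 1.31 and tRF-20-V47P596V rose by 1.63. From base 14, tRF-16-18YKIS0 fell by 1.41 and tRF-19-18YKISIM rose by 2.08. The 6 kept their signs without the 2 libraries, but neither they nor any other internal Glu-CTC fragment then passed. The split was not complete: tRF-16-9N1EWJ0, which starts at base 16 and stops at the last base before the loop, rose by 1.49 (0.53 without both libraries). The most abundant internal Glu-CTC fragment that rose, tRF-17-9N1EWJM, starts at the same base and ends at the first loop base. It ran from 7.48 to 32.9 CPM at month 6, median 17.9, and from 26.4 to 728 CPM at month 15, median 64.5, with PA8003 highest and 8 of 8 animals higher (log2 change 2.53 ± 0.58 SE, adjusted p = 0.00581, and 1.48 with adjusted p = 0.0594 without both libraries, edgeR).

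The internal fragments of Lys-CTT rose whichever way they ended. Of 28 tested, 22 rose and none fell, among them 8 of 11 that end before the loop, 10 of 11 that end in it and 4 of 6 that end beyond it. Most begin in the D arm, and the most abundant, tRF-17-S8V0J8L, went from 41.8 to 149 CPM (log2 change 1.83, adjusted p = 0.0210, and 0.69 with adjusted p = 0.382 without both libraries, edgeR). With the month 15 libraries of PA8001 and PA8003 left out, 1 of the 28 passed.

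Gly-GCC fragments also rose mostly at 32 to 36 nt, at lower counts. Of 20 fragments of 32 to 36 nt 15 rose (75%). Of 234 of 26 to 31 nt 2 rose and 7 fell (0.855% and 2.99%), against 17% and 9.52% over all fragments. Without the 2 libraries 1 of the 20 rose (median log2 change 0.91, against 1.77 with all libraries) and none of the 234 passed. The 32 nt fragment tRF-32-P4R8YP9LON4V3 went from 452 ± 306 to 1659 ± 1551 CPM, higher in 7 of 8 animals (log2 change 2.05, adjusted p = 0.00696, edgeR), and by 0.76 without both libraries (adjusted p = 0.160, edgeR). The 25 nt fragment tRF-25-P4R8YP9LON rose in 8 of 8 (log2 change 1.77, adjusted p = 0.00784, edgeR), with a change of 0.67 that did not pass without both libraries (adjusted p = 0.200, edgeR). The commonest, tRF-30-P4R8YP9LON4V, did not pass (log2 change −0.23, adjusted p = 0.662, edgeR). In Val-TAC, 6 of 17 fragments of 26 to 31 nt fell, among them tRF-31-R9JP9P9NHRSYD in 8 of 8 animals (log2 change −0.91, adjusted p = 0.0131, edgeR), and 0 of 12 of 32 to 36 nt passed in either direction. Without both libraries none of the 17 passed, tRF-31-R9JP9P9NHRSYD included (log2 change −0.68, adjusted p = 0.124, edgeR).

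Of the 53 fragments tested that end in CCA, 34 were from Asp-GTC, the aspartate tRNA, and the 3′-side fragments of that tRNA divided by their 3′ end. The sequences show the commonest fragment that ends in CCA, 1 fragment that stops 6 bases short of that end, and 1 that stops 5 bases short. Capitals mark the bases GACGGGG, after which the last fragment stops.

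tRF-42-S5QKF1R3WE8RO86J2: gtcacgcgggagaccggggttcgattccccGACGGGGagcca
tRF-30-M2OSRNLNKSEK: cgggagaccggggttcgattccccgacggg
tRF-34-EH623K7SIR3DIY: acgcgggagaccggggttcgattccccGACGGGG

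Of 34 Asp-GTC fragments that end in CCA, 14 rose and 0 fell (median log2 change 0.97). The share that rose was 41.2%, against 17% higher and 9.52% lower over all fragments. Of those that lack 1, 2 or 3 bases, 13 of 17, 15 of 20 and 4 of 13 rose and none fell. Of the 6 that lack 4 bases 2 fell and 0 rose (median −0.82), and of the 13 that lack 5 bases 3 fell and 0 rose (median −1.36). Of the 10 that lack 6 bases 2 rose and none fell (median 1.42). Without the 2 libraries none of the fragments that end in CCA or lack 1, 3, 4 or 6 bases passed, 2 that lack 2 bases rose and 2 that lack 5 bases fell. The median was then 0.79 for an end in CCA, −1.51 for 5 bases and 0.41 for 6 bases. Of the 88 internal Asp-GTC fragments 39 rose with all libraries and 3 without those 2. Summed and given as CPM of the library total without TMM scaling, the fragments 5 bases short went from 853 ± 732 to 295 ± 126, higher in 2 of 8 animals, and those 6 bases short from 137 ± 99.1 to 542 ± 799, higher in 7 of 8. The 42 nt fragment ending in CCA did not pass by itself (log2 change 0.23).

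The most abundant fragment that lacks 5 bases, tRF-33-L85DMKYUYRLHDY, went from 315 ± 299.6 to 69.1 ± 28.2 CPM and did not pass (log2 change −1.36, adjusted p = 0.0802, edgeR). The next, tRF-34-EH623K7SIR3DIY, spread widely at month 6, from 27.1 to 684 CPM with a median of 141, and ran from 26.7 to 104 CPM at month 15 with a median of 44.6. PA8872, PA8873 and PA8914 held 684, 570 and 563 CPM at month 6, and those 3 animals carry the month 6 mean. It fell in 7 of 8 animals (log2 change −1.88 ± 0.58 SE, adjusted p = 0.0177, edgeR) and by 1.84 without the 2 libraries that stood apart (adjusted p = 0.0831, edgeR). Its variant tRF-34-EH623K76IR3DIY fell by 2.48 and kept its call without both libraries (adjusted p = 0.0470, edgeR). In contrast tRF-30-M2OSRNLNKSEK went from 17.4 ± 8.50 to 130 ± 195 CPM (log2 change 2.30, adjusted p = 0.0204, edgeR), with PA8001 highest at 595 CPM. Without both libraries its change was 1.08 and did not pass (adjusted p = 0.256, edgeR).

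**Figure D5:**
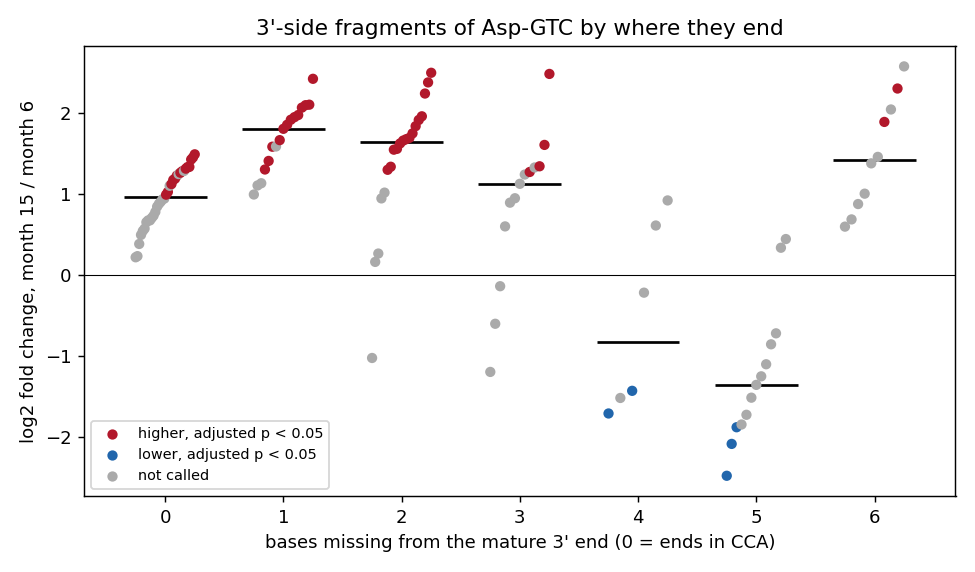
Log2 fold change (month 15 over month 6) of 3′-side Asp-GTC fragments by the number of bases missing from the mature 3′ end, 0 being an end in CCA; each point is a fragment and colours mark calls. Fragments lacking 4 or 5 bases lie mostly below 0 and those lacking 0 to 3 or 6 bases mostly above it.

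Summed per tRNA family, 7 of 24 groups passed (29.2%), 5 higher (20.8%) and 2 lower (8.33%). The 2 that fell were both valine: Val-AAC/CAC by 0.95 on the log2 scale, lower in 7 of 8 animals (adjusted p = 0.0247, edgeR), and Val-TAC by 0.75, lower in 8 of 8 (adjusted p = 0.0405, edgeR). As a share of counts without scaling, Val-AAC/CAC went from 49.3% to 34.5%, lower in 6 of 8 animals. That share did not pass (adjusted p = 0.0911, exact sign-flip test). Without the animal block 4 families passed as higher and 0 as lower. The 5 that rose were rare. Arg-TCT, an arginine tRNA, went from 36.2 ± 16.3 to 102 ± 58.0 CPM and was higher in 8 of 8 animals (log2 change 1.55 ± 0.34 SE, adjusted p = 0.000731, edgeR), with PA8915 and PA8003 highest at month 15. A single 19 nt fragment, tRF-19-PE6LQFK4, held 47.7% of its counts. Thr-TGT (1.99 to 7.05 CPM), SeC-TCA, the selenocysteine tRNA (33.2 to 77.6 CPM), and Cys-GCA (69.5 to 150 CPM) rose by 1.77, 1.19 and 1.10 on the log2 scale, each in 7 of 8 animals (adjusted p = 0.00307, 0.00316 and 0.0267, edgeR). Gln-CTG rested on 24 counts at month 6 and 111 at month 15, and Thr-TGT on 53 and 163, so the sizes of both changes are uncertain. With the month 15 libraries of PA8001 and PA8003 left out, Arg-TCT, Thr-TGT and Val-AAC/CAC were the 3 that passed. With all libraries of animal PA8003 left out, 5 families passed as higher and 0 as lower, so neither valine family passed.

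Lists of fragments known from other settings were counted in the same way. Of 122 5′ fragments of 28 to 36 nt from Asp-GTC, His-GTG and Lys-CTT, tRNAs whose fragments are described as sex hormone-dependent, 7 rose and 2 fell (median log2 change −0.27). Of 1370 fragments of glutamate, aspartate and glycine tRNAs, families whose fragments are known to bind the RNA-binding protein YBX1, 232 rose and 87 fell (median −0.05). These shares, 16.9% and 6.35%, stand beside 17% and 9.52% over all fragments. Of 20 alanine or cysteine 5′ fragments that begin with a run of G, a class known to inhibit translation, 4 rose and 0 fell. With both month 15 libraries that stood apart left out, 0 of the 122 and 0 of the 20 passed, and of the 1370, 38 rose and 5 fell.

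The other draws give the setting of this comparison. The share of 32 to 36 nt averaged 24.3% at month 0, 20.3% at month 3, 18.8% at month 6, 17.8% at month 9 and 35.4% at month 15. When month 6 was set against the mean of months 3 and 9, no fragment of 2447 passed edgeR's test (0%, with 45 at an unadjusted p under 0.05), and DESeq2 and limma-voom called 0 as well (90 and 28 unadjusted). For the fragments the results turn on, month 15 is set beside the other draws; these contrasts share the month 15 libraries. The Gly-CCC fragment tRF-32-Q1Q89P9L8422Q had a log2 change of 1.82 against month 6, 1.45 against month 3, 1.49 against month 9 and 1.00 against month 0. The valine fragment tRF-31-79MP9P9NH57SD had −0.996, −0.84, −1.06 and −0.37 in the same order. The lysine fragment tRF-32-PS5P4PW3FJHP1 had 1.42, 0.96, 1.05 and 0.82, and the aspartate fragment tRF-34-EH623K7SIR3DIY −1.88, −1.74, −2.24 and −1.37. None of them passed against month 0 (adjusted p = 0.117, 0.496, 0.124 and 0.189, edgeR), nor did the valine fragment against month 3 (adjusted p = 0.0747, edgeR). Over the 417 fragments called higher, median log2 changes against month 0 were −0.61 at month 6 and 0.96 at month 15. Over the 233 called lower they were 0.56 and −0.59. Both sets were chosen for their difference between months 6 and 15 in these same libraries. That choice by itself tends to put the 2 months on opposite sides of any other draw. The opposite signs around month 0 therefore cannot show which of the 2 months moved. Medians over all 2447 fragments against month 0 were 0.01 at month 6 and 0.05 at month 15.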

How the data were processed

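The authors deposited a table of whole-number counts, one row per fragment ID and one column per library, with the fragment sequence beside each ID. RNA was isolated with a MagMAX kit, adapters were ligated to both ends, a molecular identifier was added at cDNA synthesis and a NovaSeq X was used, per the labels' protocols. The submitters' processing notes name R 4.5.0, edgeR and limma without a role. For the aligner, the genome build and the collapsing of identifiers the answer is the same: not given in the sources used here. If they were not, counting error is understated. Serum draws of 8 animals are the replicates.

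Rows without an ID (1614 of 60201, 0.0805% of counts) were left out of library sizes and tests. No reference tRNA set was used: families were read from the sequences of reads that span the anticodon, which put 99.5% of counts in 22 families, and several rare families (Arg-TCT and Cys-GCA among them) rest on 2 such reads. A fragment shared by near-identical tRNAs cannot be split. A 5′ fragment starts at most 2 bases from where the mature tRNA begins, a 3′ CCA fragment ends in CCA, and the rest are internal.

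edgeR 4.0.16 (R 4.3.3) tested each fragment (robust quasi-likelihood, TMM, filterByExpr with a minimum count of 10, all 40 libraries, animal as a block), with Benjamini-Hochberg adjustment over all 2447 fragments and a threshold of 0.05. The fit was tested on simulated data. The animal block follows from repeat draws of the same animals. Deviations of same-animal libraries at the 2 months correlated at 0.187 on average, against −0.0252 between animals, and 7 of 8 pairs were above 0.1. Shares and ratios (pseudocount 0.5) were compared by exact sign-flip tests. Alternatives used DESeq2 1.42.0, limma-voom 3.58.1, other scalings, filters and left-out libraries.

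Named fragments are the 10 most abundant. Added to these, out of the fragments that passed and kept 1 sign in 7 or more of the 8 animals, were the commonest for every combination of family, class and length class (up to 12 a direction) and the 2 largest changes a direction over 10 CPM. Exact-sequence fragments of 25 to 36 nt of 4 families and each list's most abundant member complete the set. Some fragments that the rule names are not reported here. Members and lists were chosen with earlier results of these data known.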

Additional observations from a re-analysis of the deposited data

Results flagged for a closer look

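Within each month, 96 sets of 8 values were searched for a single library far from the rest, and 17 stood out. The rule marks about 1 in 20 sets of independent, normally distributed values. Here CPM values are skewed, the sets share libraries, and many fragments were named because they passed. How often chance marks such sets was not determined. PA8003 at month 15 gave 9 of the 17 and PA8001 at month 15 gave 3.

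In PA8003 at month 15 the Gly-CCC fragments stood highest. The 32 nt fragment tRF-32-Q1Q89P9L8422Q was at 1051140 CPM (the other libraries 52896 to 223037), tRF-30-Q1Q89P9L8422 at 212067 CPM (25513 to 97038), tRF-29-Q1Q89P9L84FS at 191095 CPM and tRF-20-Q1Q89P9L at 1498 CPM. The 32 nt Lys-TTT fragment tRF-32-PS5P4PW3FJHP1 was at 106825 CPM (7194 to 19259). The fragment tRF-32-PSQP4PW3FJHP1, which differs by 1 base from both Lys-TTT and Lys-CTT and was assigned to neither, was at 384 CPM (67.2 to 157). The internal Glu-CTC fragments tRF-17-9N1EWJM and tRF-22-9N1EWJQ72 were at 728 CPM (26.4 to 100.2) and 55.1 CPM (1.15 to 26.5). The 10 most abundant fragments of that library held 83.9% of its counts, against 69.0% to 75.6% in the others. Those CPM values carry its TMM factor of 0.458.

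In PA8001 at month 15 the Asp-GTC fragment tRF-30-M2OSRNLNKSEK was at 595 CPM (20.2 to 193). Its 5′ share was 97.7% of counts, the others 98.9% to 99.4%, and its share of internal fragments 1.94%, the others 0.509% to 0.950%.

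The remaining 5 came singly. The Lys-TTT fragment tRF-28-PS5P4PW3FJDD was at 4147 CPM in PA8872 at month 15 (180 to 767). At month 6, tRF-25-PS5P4PW3FJ was at 156 CPM in PA8003 (23.8 to 56.6), tRF-32-PSQP4PW3FJHP1 at 126 CPM in PA8001 (30.8 to 59.8), and the Gly-GCC fragment tRF-34-P4R8YP9LON4VHM at 11.1 CPM in PA8915 (0.593 to 3.06). The 5′ share of PA8873 at month 6 was 98.9% of counts, lower than 99.2% to 99.4% in the others.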

How the results depend on the processing

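The number of fragments called, 650 in the main fit, moved most with the libraries kept. It was 99 when month 15 of PA8001 and PA8003 was left out, 392 when that of PA8003 was, and 310 to 665 with 1 animal left out, lowest without PA8003. It was 128 with limma-voom library weights, 346 with no filter, 334 with a minimum count of 50, 397 from months 6 and 15 alone, and 136 from those months without both libraries (a setting chosen after seeing the data). It was 838 with DESeq2, 514 with limma-voom, 635 with RLE and 444 with library totals. These numbers count all calls under a setting, not only those among the 650. With no filter 58587 fragments were tested, and 145 of the 346 calls were among the 650. Of the 334 with a minimum count of 50, 311 were among them, and of the 397 from months 6 and 15 alone, 362. Without the animal block 536 fragments passed, and 4 of the 7 families. Without both libraries 3 families passed, and 5 to 8 with 1 animal left out. The month 6 contrast with months 3 and 9 gave 2 calls with no filter (tRF-33-L2RRM38B8SO2DV and tRF-31-Q1Q89P9L84O2E, log2 changes 4.03 and 3.02). The long to short ratio passed in 0 of 11 families without animals PA8001 and PA8003, and in 8 to 9 with any 1 animal left out. No named fragment or family that had passed changed direction under any setting run. Among shares and ratios, the sign turned in 3 that had not passed: the Glu-CTC share without replicate 4 (−0.131 percentage points, in a range of −0.131 to 0.894 with 1 animal left out), the Gly-GCC share without replicates 1, 3, 5 or 6 (−0.155, −0.359, −0.292 and −0.0990, range −0.359 to 0.385) or both animals (−0.0875), and the Asp-GTC ratio when taken between the 2 bases at the loop's start (0.77 in place of −0.73). The causes were not tested. Counts near the floor of 3 limit the rare families.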

Other observations

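Among 5′ fragments, those with a family's exact sequence and those with mismatches to it moved differently. Of 278 exact fragments 76 were higher at month 15 and 5 lower (median log2 change 0.88, and 0.42 without the 2 libraries that stood apart). Of 1675 with at least 1 mismatch 195 were higher and 199 lower (median −0.20 and −0.11). These shares, 27.3% and 1.80% for exact fragments and 11.6% and 11.9% with a mismatch, stand beside 17% and 9.52% over all fragments. The calls did not keep that contrast without the 2 libraries: 5 exact fragments were higher and 0 lower, and 64 with a mismatch were higher and 12 lower. The share of 5′ counts with a mismatch averaged 25.4% (SD 3.36) at month 6 and 20.5% (SD 6.05) at month 15, and the difference did not pass (adjusted p = 0.170, exact sign-flip test). Whether the mismatches are other gene copies, base modifications or read errors was not tested. Fragment length was not held fixed between exact and mismatched fragments, and whether it accounts for their difference was not tested.

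Of 8 internal fragments of Met-CAT, the methionine tRNA, 5 rose and 0 fell (median log2 change 1.59, and 1.22 without those libraries, when 1 passed). Of 10 5′ fragments of the leucine tRNA Leu-CAG 4 rose, and all 10 had a positive log2 change (median 0.97, and 0.71 without those libraries, when none passed). Over all fragments 17% rose and 9.52% fell. The Leu-CAG family as a whole did not pass, at 129 ± 50.7 CPM at month 6 and 189 ± 61.2 CPM at month 15, higher in 7 of 8 animals (adjusted p = 0.102, edgeR).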
